A study of Mus musculus with 99 samples.

Results

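The genes described here carry calcium out of the endoplasmic reticulum (ER) or refill it from outside the cell: 3 ryanodine receptors (Ryr1, Ryr2, Ryr3), 3 inositol trisphosphate (IP3) receptors (Itpr1, Itpr2, Itpr3), the store sensors Stim1 and Stim2, and the plasma membrane channel subunits Orai1 and Orai2. They were chosen by name, as the genes of these families, and are 10 of the 55291 genes in the deposited table, all of them found there. Their reads were compared between hand-picked outer hair cells (OHCs) and OHCs made to express the transcription factor Tbx2, per the labels in the course of becoming inner hair cells, called converted IHCs (cIHCs).

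All cells came from the cochlea of C57BL/6 mice that carry Slc26a5-CreER/+, an inducible Cre driven from the locus of the OHC motor protein prestin. The 32 OHCs, labelled wild type, were from Slc26a5-CreER/+; Ai9/+ mice at postnatal day 30, where Ai9 is a Cre-dependent tdTomato reporter. The 67 cIHCs were from Slc26a5-CreER/+; Rosa26Tbx2/+ mice at postnatal day 42, and both groups were picked by their red fluorescence. Genotype and age differ together between the groups and cannot be told apart, and no endogenous IHC group was used here. The labels tie no cell to an animal, so each group counts as 1 sample, and no test between groups was possible. The intervals given below cover counting error only. Those for levels and ratios also treat each read as independent, although PCR copies are counted, so they are too narrow even for that error.

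Calcium stored in the ER leaves through 2 kinds of channel. Ryanodine receptors open mainly on cytosolic calcium or on a coupled voltage sensor, whereas IP3 receptors open when phospholipase C makes IP3. When the store empties, STIM proteins in the ER membrane sense the loss and open ORAI channels in the plasma membrane, and SERCA pumps refill the ER. OHCs hold conspicuous ER cisterns beneath their lateral wall and beneath the cholinergic efferent synapse, where store calcium is thought to act beside calcium entering through nicotinic receptors. IHCs use calcium at ribbon synapses.

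Each cell held 5656512 to 9287413 counts (median 7443782) and 4769 to 8567 genes with reads among OHCs, and 4677682 to 13792672 counts (median 7757517) and 7081 to 11719 genes among cIHCs. The labels were checked on identity genes: Tbx2 stood at 0.0124 counts per 1000000 counts (CPM) pooled over the OHCs and 730.7 over the cIHCs, Slc26a5 (prestin) at 2080 and 0.303, and Slc17a8, the vesicular glutamate transporter of IHCs, at 69.2 and 1179. Reads of Xist marked 4 of 32 OHCs and 55 of 67 cIHCs, and Y-linked reads marked 24 OHCs and 12 cIHCs, so the sexes of the animals were unevenly spread over the groups. Because genes of one level are detected in fewer OHCs (for genes at 10 to 30 CPM, in a median of 28.1% of OHCs and 47.8% of cIHCs), shares of cells are read against that background below.

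The sequences just upstream of Ryr1 and Ryr2 are shown because the leading ryanodine receptor was Ryr2 in OHCs and Ryr1 in cIHCs, and because the groups differ by a T-box factor. Each run is the 250 bases before the RefSeq start site (build GRCm38.p6), 5′ to 3′ on the gene's own strand, Ryr1 from chr7:29125152-29125401 (minus strand) and Ryr2 from chr13:12106946-12107195 (minus strand). Capitals mark the T-box core GGTGTG, searched on both strands.
Ryr1: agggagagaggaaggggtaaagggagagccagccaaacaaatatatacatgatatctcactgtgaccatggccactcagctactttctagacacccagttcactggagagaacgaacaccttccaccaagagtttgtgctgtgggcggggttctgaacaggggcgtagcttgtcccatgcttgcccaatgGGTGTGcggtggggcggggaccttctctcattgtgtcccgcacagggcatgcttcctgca
Ryr2: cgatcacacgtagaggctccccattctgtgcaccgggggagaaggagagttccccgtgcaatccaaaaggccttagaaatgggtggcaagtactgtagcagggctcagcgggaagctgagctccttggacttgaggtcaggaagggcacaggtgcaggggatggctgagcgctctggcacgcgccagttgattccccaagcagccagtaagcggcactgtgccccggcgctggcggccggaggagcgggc
RefSeq promoters of 300 bases (250 before to 50 after the start) were matched for 8 of the 10 members, all but Itpr1 and Ryr3. The core stood once in that of Ryr1, once in Itpr3 and 2 times in Orai1, and was not found in the windows of Ryr2, Itpr2, Orai2, Stim1 or Stim2. For comparison, 19.05% of all 32851 mouse promoters of that length hold it, so 3 of 8 is a description of these letters and names no site. The longer site AGGTGTGA, which contains the core, was in none of the 8 and in 1.28% of all promoters. GC content was 56.7% in the Ryr1 promoter and 65.3% in that of Ryr2, against a median of 52.7% over all promoters.

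Across the whole table, 16005 genes reached 1 CPM pooled in 1 or both groups, and their median log2 ratio of pooled CPM, cIHC over OHC, was 0.31. Of these genes, 34% were at least 2-fold higher and 19.7% at least 2-fold lower in cIHCs. Of the 10 members, 9 reached that level (all but Itpr3), with a median of 0.42: Ryr1, Itpr1 and Itpr2 were at least 2-fold higher, Ryr2, Ryr3 and Orai1 at least 2-fold lower, and Stim1, Stim2 and Orai2 lay between. The 3 higher of 9 (33.3%) are near their background of 34%, and the 3 lower (33.3%) are above theirs of 19.7%. With only 9 genes these shares are a description, and no difference from the backgrounds was tested. The 2 genes furthest from 0 were Itpr1, higher, and Ryr2, lower.

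**Figure D1:**
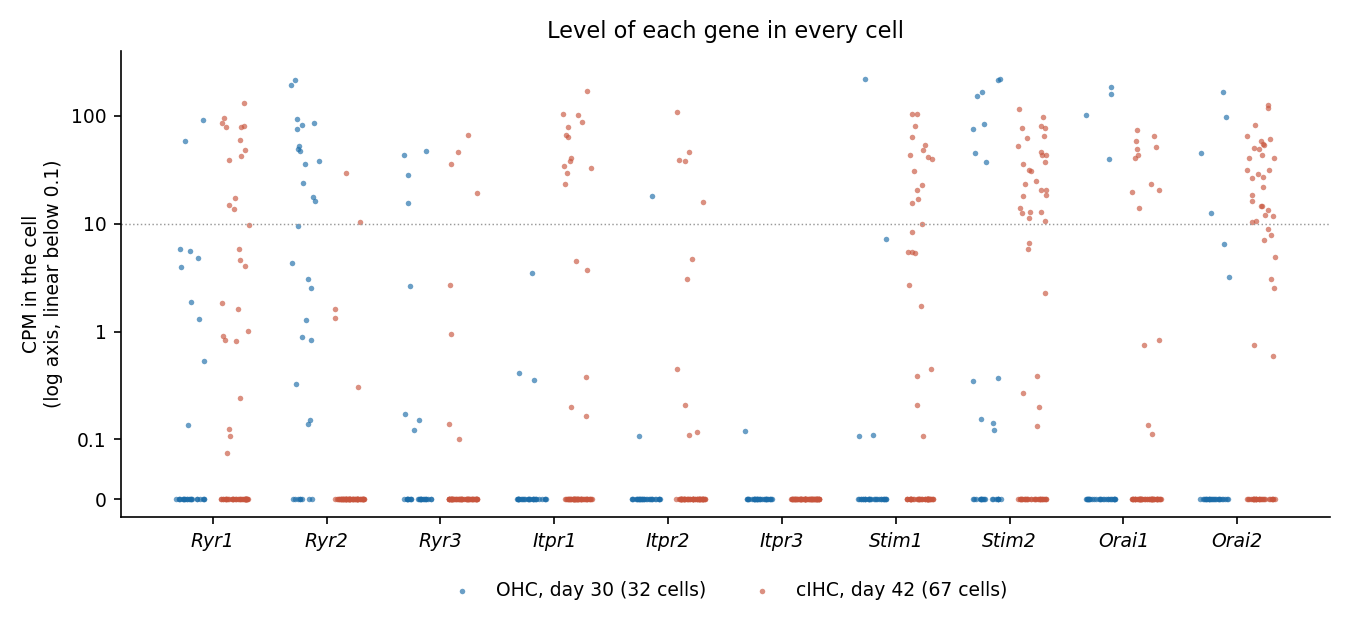
Level of each of the 10 genes in each of the 99 cells, in CPM on an axis that is logarithmic above 0.1 and linear below; blue points are 32 OHCs, red points 67 cIHCs, and the dotted line is 10 CPM. Ryr2 points are mostly blue and reach 214.7 CPM, Itpr1 points above 10 CPM are all red, and every gene has many cells at 0.

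Ryr2 is the ryanodine receptor of heart muscle and of many neurons, opened by calcium that enters nearby (chr13:11553102-12106945, minus strand; coordinates here and below are GENCODE M21 genes on GRCm38). Over the 32 OHCs its level ran from 0 through a median of 3.72 to 214.7 CPM, and over the 67 cIHCs from 0 through a median of 0 to 29.4 CPM. The groups overlapped at the low end, since 8 OHCs also had no Ryr2 read, but the upper OHCs stood far above the highest cIHC. Reads were present in 24 of 32 OHCs (75%, exact Clopper-Pearson 95% interval 56.6 to 88.5%) and in 5 of 67 cIHCs (7.46%, 2.47 to 16.6%), and 14 OHCs but 2 cIHCs reached 10 CPM. In 73.3% of all pairs of 1 OHC and 1 cIHC the OHC was the higher, in 3.59% the cIHC, and the rest were tied at 0. Ryr2 was the only member with a median above 0 in OHCs.

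Pooled, Ryr2 stood at 31.9 CPM in OHCs (exact Poisson interval 31.2 to 32.6) and 0.579 CPM in cIHCs (0.517 to 0.647), a 55.03-fold lower level and a log2 ratio of -5.78 (exact conditional interval -5.95 to -5.62). It was at least 2-fold lower in cIHCs under all 10 alternatives computed for it, which ran from -9.98 to -4.14 with sums under 3 counts set to 3. Among cells with Xist reads the log2 ratio was -4.14, and among cells with Y-linked reads the 12 cIHCs held 2 Ryr2 reads, a ratio of counts of -10.57 (-13.62 to -8.72), or -9.98 with those 2 reads set to 3.

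The 5 cIHCs with Ryr2 reads held 204, 80, 16, 13 and 2 of them, or 29.4, 10.3, 1.62, 1.35 and 0.307 CPM. None had more than 0.101 CPM of Slc26a5, and all carried Tbx2, from 580.0 to 2270 CPM. Only the cell with 2 reads had more than a trace of Ocm, the abundant OHC protein oncomodulin, at 128.1 CPM. The cells with 29.4 and 10.3 CPM also carried 256.1 and 225.6 CPM summed over 8 macrophage and blood genes, where the cIHC median was 2.97 and the range 0 to 336.9 (OHCs 0 to 67.0); 6 of the 8 had reads in cIHCs, with C1qa and Cx3cr1 at 0. With cells left out where a list of another cell type reached 100 CPM, the remaining 21 OHCs and 45 cIHCs held 6982 and 18 Ryr2 reads, a log2 ratio of -9.73.

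Ryr1 is the skeletal muscle ryanodine receptor, opened there by the voltage sensor of the calcium channel (chr7:29003344-29125179, minus strand). It had reads in 10 of 32 OHCs (31.3%) and 27 of 67 cIHCs (40.3%), from 0 to 90.5 CPM among OHCs and from 0 to 131.9 CPM among cIHCs, with both medians at 0. The cells of the groups overlapped throughout. At least 10 CPM was reached by 2 of 32 OHCs (6.25%, 0.766 to 20.8%) and 13 of 67 cIHCs (19.4%, 10.8 to 30.9%), intervals that overlap. Pooled CPM was 5.20 (4.91 to 5.49) in OHCs and 12.3 (12.0 to 12.6) in cIHCs, a log2 ratio of 1.24 (1.16 to 1.33). A single OHC held 58.4% of the OHC reads. With that cell and the top cIHC left out, the ratio was 2.29. That OHC also carried 108.0 CPM over 6 skeletal muscle genes (range 0 to 166.0 over OHCs and 0 to 105.5 over cIHCs; Acta1, Ckm, Myh4 and Tnni2 were at 0 in OHCs). Without cells of other-type reads the log2 ratio was 2.43, and among cells with Xist reads it was at least 6.72, because the 4 OHCs held 0 reads.

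Ryr3, a form found at low levels in brain and other tissues (chr2:112631355-113217096, minus strand), had reads in 8 of 32 OHCs and 8 of 67 cIHCs. Its highest cell had 46.8 CPM among OHCs and 66.4 CPM among cIHCs, and both medians were 0. Pooled CPM was 4.85 (4.57 to 5.13) and 2.31 (2.18 to 2.44), a log2 ratio of -1.07 (-1.19 to -0.96). The value is uncertain: 916 bp of its exons overlap Aven on the other strand, Aven had 9323 and 24310 counts, and whether counting used strand is not given in the sources used here. Aven reads were present in 5 of the 8 OHCs and 7 of the 8 cIHCs with Ryr3 reads, beside 16 of 32 OHCs and 58 of 67 cIHCs in all. Leaving out cells with other-type reads moved the ratio to -0.39.

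Per kilobase of exon, Ryr2 held 69.2% of the ryanodine receptor reads of OHCs and 2.85% of those of cIHCs, while Ryr1 held 14.9% and 79.9%. Any ryanodine receptor read was found in 29 of 32 OHCs (90.6%, 74.98 to 98.02%) and in 36 of 67 cIHCs (53.7%, 41.1 to 66%). The summed level of the 3 genes was 41.9 CPM pooled over OHCs and 15.2 over cIHCs. OHCs with Ryr1 reads usually had Ryr2 reads too (8 of 10), whereas among the cIHCs 1 of 27 did. The 2 receptors were thus found together mainly in OHCs, where most cells carried Ryr2.

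**Figure D2:**
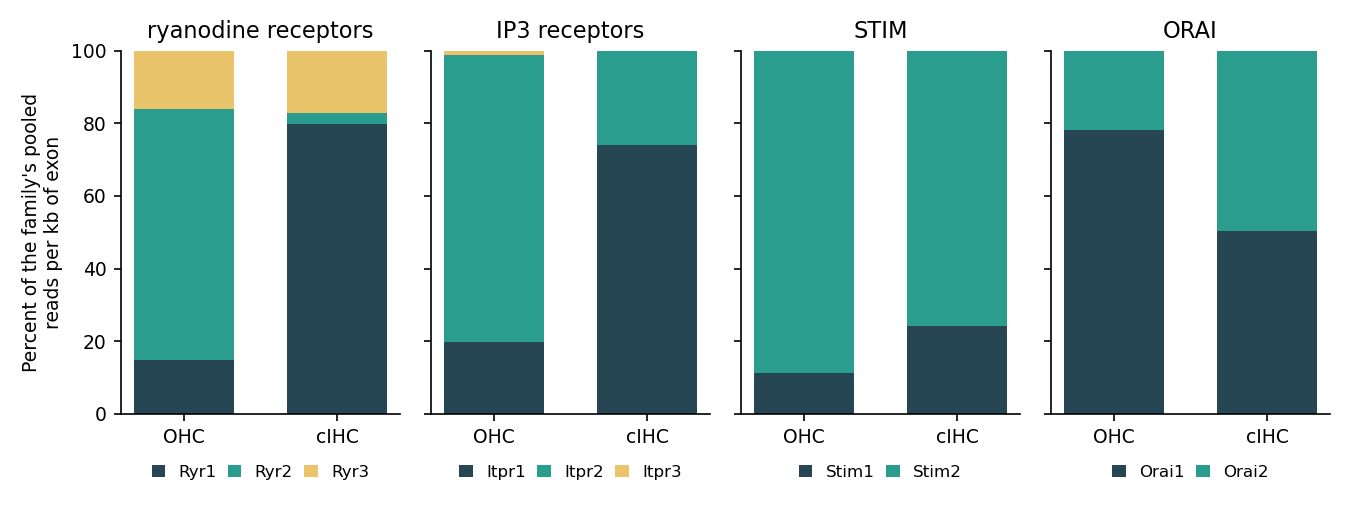
Makeup of each family in each group: stacked bars give the percent of the family's pooled reads per kb of exon held by each gene, so each bar sums to 100. Ryr2 takes 69.2% of the OHC bar and 2.85% of the cIHC bar, Itpr1 73.9% of the cIHC bar of the IP3 receptors, and the IP3 receptor bar of OHCs rests on few reads.

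Itpr1 is the IP3 receptor best known from Purkinje neurons (chr6:108213096-108551109, plus strand). Its level ran from 0 to 3.50 CPM over the OHCs and from 0 to 168.5 CPM over the cIHCs, and both medians were 0. Reads were present in 3 of 32 OHCs (9.38%, 1.98 to 25.0%) and 18 of 67 cIHCs (26.9%, 16.8 to 39.1%). The groups overlapped at 0, but 13 cIHCs exceeded 10 CPM and no OHC did (0 of 32, which allows a share of up to 9.38% by a limit of 3 cells, and 10.9% by the exact interval). The pooled level was 0.145 CPM (0.101 to 0.201) from 35 counts in OHCs and 13.0 CPM (12.7 to 13.3) from 7065 counts in cIHCs, 89.8-fold higher, a log2 ratio of 6.49 (6.01 to 7.01). It was at least 2-fold higher under all 10 alternatives, from 6.29 to 8.75, and stood at no less than 6.76 in cells with Xist reads (0 reads in the 4 OHCs) and at 6.89 in cells with Y-linked reads. The cIHC at 168.5 CPM, with 16.15% of the cIHC reads, carried 298.3 CPM over the 8 macrophage and blood genes. Without cells with other-type reads the log2 ratio was 8.16, with 6 reads left in OHCs. Genes of 10 to 30 CPM were found in a median of 47.8% of cIHCs (5th to 95th percentile 25.4 to 79.1%), so Itpr1 reads were held by fewer cells than usual for its level.

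Itpr2, the form with the highest affinity for IP3 (chr6:146108299-146502223, minus strand), had reads in 2 of 32 OHCs and 11 of 67 cIHCs. The OHCs ranged from 0 to 18.04 CPM and the cIHCs from 0 to 107.8 CPM, with medians of 0. Pooled CPM was 0.471 (0.388 to 0.566) and 3.70 (3.54 to 3.86), a log2 ratio of 2.97 (2.70 to 3.26). A single cIHC held 39.2% of the cIHC reads, and it was also the highest cIHC for Ryr3 and Stim1. One OHC held 99.1% of the OHC reads, and that cell carried 1732 CPM over 10 supporting cell genes, the highest of any OHC (median 0; 8 of the 10 had reads in OHCs, Slc1a3 and Lfng were at 0; cIHCs 0 to 899.4). Without the highest cells 1 OHC read was left and the ratio was 9.07 (6.59 to 14.37), while among cells with Xist reads, which include that OHC, the sign turned to -0.39.

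Itpr3, the IP3 receptor of many epithelia and of taste cells (chr17:27057304-27122223, plus strand), had 1 read in 1 OHC and 0 reads in the cIHCs. A count of 0 in 544012348 reads has an exact Poisson 95% limit of 0.00678 CPM, and no ratio is given. Any IP3 receptor read was found in 5 of 32 OHCs (15.6%, 5.28 to 32.8%) and 21 of 67 cIHCs (31.3%, 20.6 to 43.8%), beside the lower detection of genes in OHCs given above. Reads of both Itpr1 and Itpr2 were found in 8 cIHCs and in 0 OHCs. In cIHCs Itpr1 held 73.9% of the IP3 receptor reads per kilobase, and in OHCs the family summed to 0.620 CPM.

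**Figure D3:**
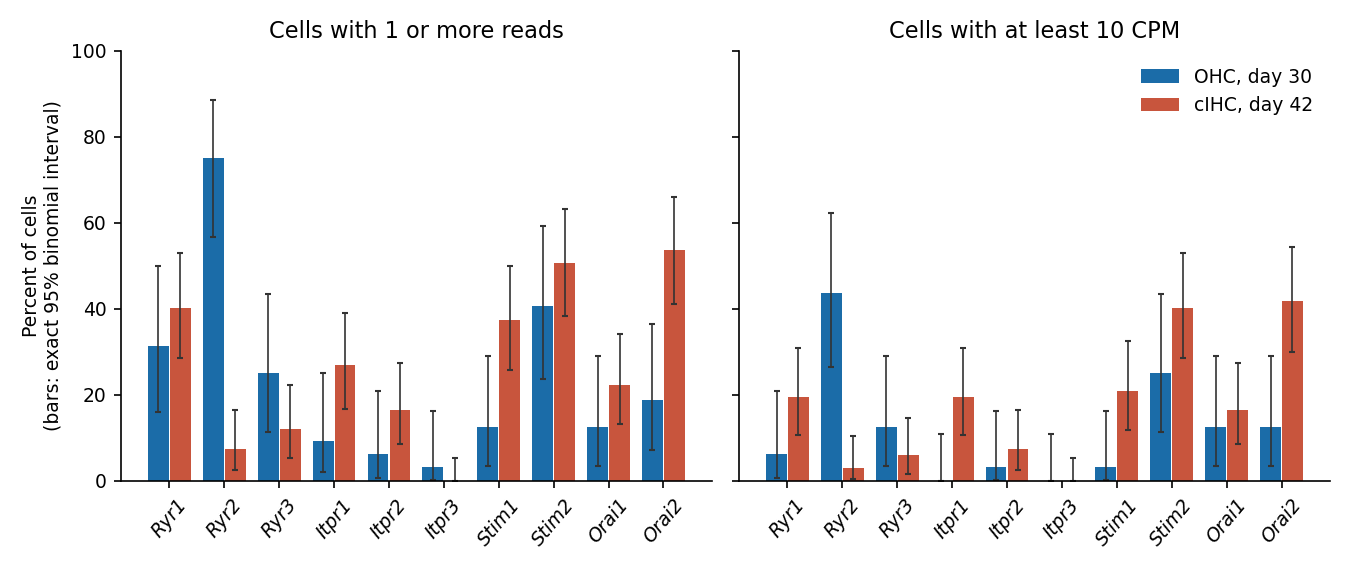
Percent of cells with 1 or more reads (left) and with at least 10 CPM (right) of each gene; blue bars are 32 OHCs, red bars 67 cIHCs, and lines are exact 95% binomial intervals for counting error. Ryr2 has the widest gap in favour of OHCs in both panels (75% and 7.46% on the left), Ryr3 a smaller one, and the Orai2 bars stand at 18.8% and 53.7%.

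Stim1 and Stim2 are ER membrane proteins whose calcium-binding part faces the store; Stim2 responds to smaller losses of store calcium than Stim1. Stim2 (chr5:53998499-54121057, plus strand) was the more abundant in both groups per kilobase, with 88.6% of STIM reads in OHCs and 75.7% in cIHCs. Its level ran from 0 through 0 to 217.0 CPM in OHCs and from 0 through a median of 0.132 to 115.5 CPM in cIHCs. It had reads in 13 of 32 OHCs (40.6%, 23.7 to 59.4%) and 34 of 67 cIHCs (50.7%, 38.2 to 63.2%), intervals that overlap. Cells with reads held a median of 45.6 CPM among OHCs and 22.1 CPM among cIHCs. The pooled values were 33.2 CPM (32.5 to 33.9) and 17.7 CPM (17.4 to 18.1), a log2 ratio of -0.91 (-0.95 to -0.86). The direction depended on the cells used, since the 4 OHCs with Xist reads held 1 Stim2 read, for a ratio of 9.12 (6.64 to 14.42) there, against -1.85 in cells with Y-linked reads.

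Stim1 (chr7:102267806-102437319, plus strand) had reads in 4 of 32 OHCs (12.5%, 3.51 to 29%) and 25 of 67 cIHCs (37.3%, 25.8 to 49.99%). The median gene of similar level was also found in a larger share of cIHCs than of OHCs. The OHCs ran from 0 to 219.0 CPM and the cIHCs from 0 to 104.5 CPM, with medians of 0, and 1 OHC and 14 cIHCs reached 10 CPM. Pooled CPM differed little, at 8.61 (8.25 to 8.99) and 11.5 (11.2 to 11.8), a log2 ratio of 0.42 (0.34 to 0.49). That closeness came from 1 OHC with 97.4% of the OHC reads: with that cell and the top cIHC left out the levels were 0.232 and 10.2 CPM, a ratio of 5.46 (5.08 to 5.88). The same OHC had the highest Ryr3 level of its group and the highest sum of 6 neuron genes, 3155 CPM (OHCs 0.142 to 3155, median 1790; cIHCs 322.7 to 1873, median 768.7). All 6 had reads in both groups. That OHC also carried 114.5 CPM over 8 fibroblast and vascular genes (OHCs 0 to 217.1, cIHCs 0 to 391.5; Cdh5, Acta2 and Tagln were at 0 in OHCs). Without cells with other-type reads the Stim1 levels were 0.335 and 9.67 CPM, a ratio of 4.85. The part of these genes in the result was not tested.

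Orai1 is the pore subunit of the classical store-operated channel (chr5:123015074-123030456, plus strand). Reads were present in 4 of 32 OHCs (12.5%, 3.51 to 29%), at 39.97 to 186.5 CPM, and in 15 of 67 cIHCs (22.4%, 13.1 to 34.2%), the highest at 73.0 CPM. Few OHCs carried it, but each of those strongly. Pooled CPM was 15.8 (15.3 to 16.3) and 6.50 (6.29 to 6.72), a log2 ratio of -1.28 (-1.35 to -1.22). The ratio was short of 2-fold, at -0.91 with the top cell of both groups left out, and at -0.90 without cells with other-type reads.

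Orai2, a subunit that also joins mixed channels with Orai1 (chr5:136147459-136170713, minus strand), had reads in 6 of 32 OHCs (18.8%, 7.21 to 36.4%) and in 36 of 67 cIHCs (53.7%, 41.1 to 66%), the most of any member there. It ran from 0 through a median of 0 to 165.1 CPM in OHCs and from 0 through 2.53 to 125.6 CPM in cIHCs. The share of cells with reads was larger in cIHCs, yet the pooled levels were close, at 11.7 CPM (11.3 to 12.2) and 16.9 CPM (16.6 to 17.3), a log2 ratio of 0.53 (0.47 to 0.59). One OHC held 50.8% of the OHC reads, and without the highest cells the ratio was 1.36 (1.28 to 1.44). Among genes of 10 to 30 CPM the median gene was also found in more cIHCs than OHCs, as given above.

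Reads of Stim1 or Stim2 together with Orai1 or Orai2 in 1 cell, the pair that store-operated entry needs, were found in 5 of 32 OHCs and 30 of 67 cIHCs. Any STIM read was present in 16 OHCs (50%, 31.9 to 68.1%) and 48 cIHCs (71.6%, 59.3 to 82.0%), and any read of Orai1 or Orai2 in 9 OHCs (28.1%, 13.7 to 46.7%) and 43 cIHCs (64.2%, 51.5 to 75.5%). Genes of one level were in general found in fewer OHCs (at 10 to 30 CPM, in a median of 28.1% of OHCs and 47.8% of cIHCs). How much of these differences in shares goes with that background was not tested. The pooled sums had the other order, 41.8 CPM of STIM in OHCs and 29.2 in cIHCs, and 27.6 CPM of Orai1 and Orai2 in OHCs and 23.4 in cIHCs. With Orai3, which is not one of the 10 genes, the ORAI sums were 36.2 CPM in OHCs and 58.2 CPM in cIHCs, and ORAI reads were found in 13 OHCs and 61 cIHCs, beside STIM reads in 8 and 44 of them. A cell held reads of a median of 2 of the 10 members (0 to 5) among OHCs and 3 (0 to 6) among cIHCs. With each cell thinned to 5770000 reads the medians were 2 and 2.5.

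Compared per kilobase of exon, which allows levels of different genes to be ranked, OHCs had Orai1 (6.89 CPM per kb) and Stim2 (6.47) highest, then Orai2 (1.93), Ryr2 (1.11) and Stim1 (0.831). Ryr3 (0.255, 0.241 to 0.270) and Ryr1 (0.238, 0.225 to 0.252) followed with overlapping intervals, then Itpr2 (0.0318), Itpr1 (0.00789) and Itpr3 (0.000458). In cIHCs Stim2 led (3.45), and Orai1 (2.83, 2.74 to 2.93) and Orai2 (2.79, 2.73 to 2.84) were not separated. Stim1 (1.11), Itpr1 (0.709), Ryr1 (0.563), Itpr2 (0.2497), Ryr3 (0.121) and Ryr2 (0.0201) came next, with Itpr3 at 0. Every member was at 0 in at least 1 cell of each group, so the ranges over cells overlapped between neighbours in both orders. The OHC order also rests on few cells. Orai1 had reads in 4 of 32 OHCs, 1 OHC held 50.8% of the Orai2 reads, and another held 97.4% of the Stim1 reads. With the length of the longest transcript, 6 members kept their rank in OHCs and 7 in cIHCs, where Orai2 (4.24) then led Stim2 (3.59) and Orai1 (3.47).

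**Figure D4:**
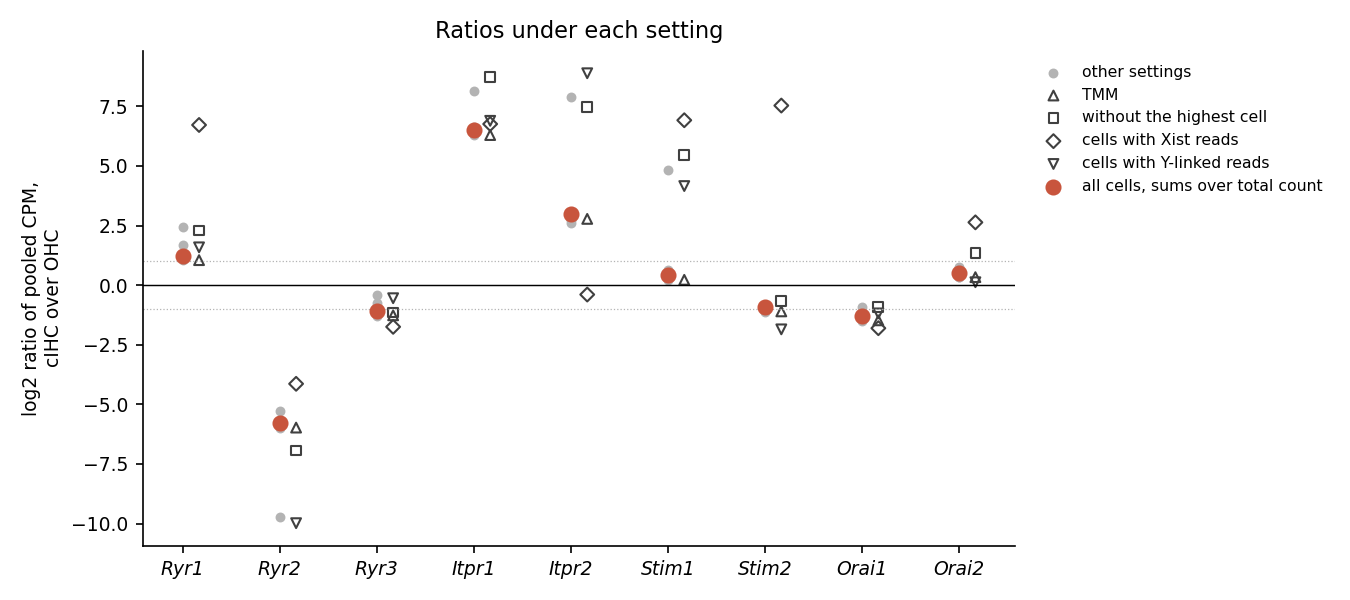
Log2 ratio of pooled CPM, cIHC over OHC, for the 9 members past 1 CPM; red points use all cells, open symbols and grey points use other scalings or subsets of cells, and dotted lines mark 2-fold. Ratios with sums under 3 counts are drawn with 3 counts. Ryr2 stays below and Itpr1 above the dotted lines, whereas Itpr2 and Stim2 each have 1 symbol on the other side of 0.

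Ryr2 in OHCs was the only member detected in 75% or more of the cells of a group, so it alone was set against other genes cell by cell. Among 2861 genes detected in that share of OHCs, the genes with the most similar order over the 32 cells were Ubtd2 (Spearman rho 0.58, Pearson r 0.49) and Cog5 (rho 0.56, r 0.37), given as a description of cells that share depth differences.

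The genes around these channels were taken from 10 lists by role, 132 genes in all, of which 102 passed 1 CPM. Of these, 28 (27.5%) were at least 2-fold higher in cIHCs and 13 (12.7%) at least 2-fold lower, with a median log2 ratio of 0.30, near the median of 0.31 over all genes. The shares were below the backgrounds of 34% and 19.7%. The counts and medians of the single lists follow.

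Among proteins that bind or anchor ryanodine receptors, 0 of 11 were at least 2-fold higher and 5 at least 2-fold lower, with a median of -0.99. Jph1, a junctophilin that ties the ER to the plasma membrane beside ryanodine receptors, had reads in 21 of 32 OHCs, up to 299.1 CPM (median 2.45), and in 3 of 67 cIHCs, up to 5.64 CPM. Its pooled level was 48.2 CPM in OHCs and 0.116 in cIHCs, a log2 ratio of -8.70 (-9.08 to -8.35), and it lay between -9.65 and -6.66 under the alternatives. S100a1, a calcium-binding protein that acts on ryanodine receptors and SERCA, was present at 4753 CPM among OHCs and 547.5 CPM among cIHCs (log2 ratio -3.12). Sri (sorcin), which binds ryanodine receptors and was also on the list of OHC markers, stood at 2813 and 509.4 CPM (-2.47), with OHCs from 965.7 to 5007 CPM and cIHCs from 138.3 to 1084 CPM. The other two rested on few cells: Casq1 had reads in 6 OHCs and 3 cIHCs, and Hrc in 1 OHC and 6 cIHCs. With the top cells of each gene left out the median of the list was 0.36, with 2 higher and 4 lower, and in cells with Xist reads it was 0.35.

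Among regulators of IP3 receptors, 6 of 13 were at least 2-fold higher and 0 lower, with a median of 0.97. Cabp1, a neuronal calcium sensor that binds IP3 receptors and calcium channels, had 1 read in the OHCs and 7266 in 34 of 67 cIHCs (13.4 CPM), a log2 ratio of 11.66 (9.18 to 16.96). Rnf170, a ubiquitin ligase for activated IP3 receptors, stood at 9.19 and 58.2 CPM (2.66), and Bcl2l1, the survival protein Bcl-xL that binds them, at 23.4 and 96.4 CPM (2.05). Grina, a transmembrane protein of the ER and Golgi, was the most abundant of this list in OHCs, at 98.4 CPM against 83.1 in cIHCs.

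Among the phospholipases and G proteins that make IP3, 5 of 10 were at least 2-fold higher and 1 lower, with a median of 1.08. These counts depended on the cells used. They were 6 higher and 4 lower in cells with Xist reads (median 1.46), and 4 and 3 in cells with Y-linked reads (median 0.31). Plch1 stood at 1.38 CPM in OHCs, nearly all of it (99.7%) in 1 cell, and at 25.1 CPM in 32 of 67 cIHCs (4.19). Plcg1, which tyrosine kinases activate, stood at 1.38 and 20.7 CPM (3.91; 1.72 in cells with Xist reads). Plch2 was the most abundant in cIHCs, at 51.7 CPM in OHCs and 136.7 in cIHCs (1.40; 0.73 in cells with Y-linked reads). The most abundant of the list in OHCs was the lower gene: Plce1, a phospholipase C that small GTPases activate, had reads in all 32 OHCs and 47 of 67 cIHCs, at 406.9 and 29.1 CPM (-3.81, range over alternatives -4.16 to -3.59).

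Of the enzymes that convert IP3 or other inositol phosphates, 3 of 8 were higher and 0 lower. Itpka, a neuronal IP3 kinase, had 0 reads in OHCs and 29.6 CPM in cIHCs, from 0 through a median of 1.77 to 157.8 CPM with reads in 43 of 67 cells. Set against 3 reads over the OHCs, its log2 ratio was at least 11.22. Inpp1, a phosphatase that turns over inositol phosphates, was found in 29 of 32 OHCs and all 67 cIHCs, at 135.8 and 396.9 CPM (1.55).

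Partners of STIM and ORAI gave 3 of 12 higher and 1 lower. Orai3, the remaining ORAI gene, stood at 8.63 CPM in 5 of 32 OHCs and 34.8 CPM in 34 of 67 cIHCs (2.01; 2.86 without the highest cells), but at -0.01 in cells with Xist reads. Saraf, which slows store-operated entry, was the most abundant in OHCs and close between groups, at 130.1 and 153.9 CPM (0.24), and Septin2 in cIHCs, at 122.5 and 227.0 CPM (0.89).

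Pumps, pump regulators and calcium-binding proteins of the ER gave 4 of 17 higher and 2 lower. Atp2a3 (SERCA3), also on the list of IHC markers, had reads in 3 of 32 OHCs and all 67 cIHCs, at 8.62 and 1310 CPM, a log2 ratio of 7.25 (7.19 to 7.31). One OHC held 66.3% of the OHC reads, and without the highest cells the ratio was 8.75. The widespread pump Atp2a2 (SERCA2) stood at 115.2 and 95.7 CPM (-0.27), and is named here beside Atp2a3, chosen after its values were seen. Pln (phospholamban), which inhibits SERCA pumps, was at 11.1 and 35.2 CPM (1.67, but 0.19 in cells with Xist reads and 0.28 in cells with Y-linked reads). The Pln value is uncertain, as for Ryr3, since 1644 bp of its 2759 bp of exons overlap Gm47644 on the other strand. Gm47644 had 23222 and 47752 counts, and Cep85l, which shares 141 bp on that strand, had 86049 and 183028. Nucb2, a calcium-binding protein, was at 49.8 and 17.1 CPM (-1.54, but 0.28 in cells with Xist reads). Hsp90b1, an ER chaperone, was the most abundant in OHCs, at 735.9 and 613.3 CPM.

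Other release channels gave 2 of 9 higher and 1 lower. Mcoln3, a channel of endosomes and lysosomes known for its role in hair cells, was in every cell, at 900.5 CPM in OHCs and 468.6 in cIHCs (-0.94; -0.12 in cells with Xist reads and -0.47 in cells with Y-linked reads). Psen2, a presenilin of the ER, stood at 11.1 and 31.8 CPM (1.51), and Tpcn1, a lysosomal channel that NAADP opens, at 28 and 5.19 CPM (-2.43). Enzymes of cyclic ADP-ribose, a messenger for ryanodine receptors, had 1 gene past 1 CPM, Sarm1, at 8.41 and 5.96 CPM (-0.50; 0.39 without the highest cells).

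Mitochondrial uptake genes, which take up calcium released nearby, gave 3 of 13 higher and 2 lower. Mcu, the pore of the uniporter, stood at 8.68 and 30.0 CPM (1.79), but at -0.43 in cells with Xist reads. Mcub, the inhibiting pore subunit, was at 15.7 and 3.34 CPM (-2.24) with reads in 8 OHCs and 4 cIHCs. Vdac3 led in OHCs, at 416.1 and 270.4 CPM, and the uniporter subunit gene Smdt1 in cIHCs, at 219.3 and 415.5 CPM. The list for contact sites between the ER and the plasma membrane gave 2 of 8 higher and 1 lower. It includes Ormdl3, an ER membrane regulator of sphingolipid synthesis rather than a tether, at 101.3 and 1079 CPM (3.41). The lipid transfer protein Pitpnm1 was at 23.5 and 73.9 CPM (1.65, but 0.80 in cells with Xist reads), and the ER tether Vapb at 84.6 and 26.5 CPM (-1.68, but -0.80 in those cells). Its relative Vapa was the most abundant in OHCs, at 349.0 and 282.3 CPM.

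**Figure D5:**
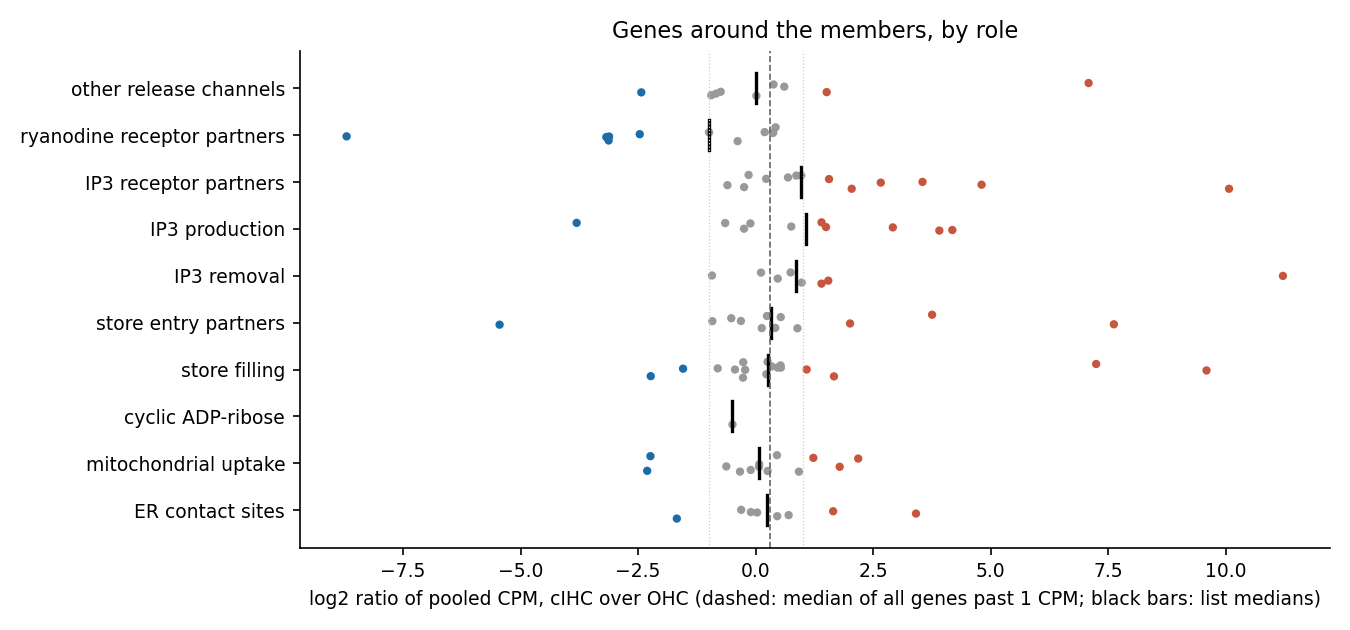
Log2 ratio of pooled CPM, cIHC over OHC, for the 102 genes of the 10 role lists past 1 CPM, 1 row per list; red points are at least 2-fold higher, blue at least 2-fold lower, black bars are list medians, and the dashed line is the median of all genes, 0.31. Sums under 3 counts are drawn with 3 counts, and the row of ryanodine receptor partners is the only one of more than 1 gene without a red point.

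The ratios also depend on the scaling, here to total counts. With TMM or median-of-ratios factors in place of totals the ratio of every gene shifted by -0.19 or -0.20, so that 4 members in place of 3 were at least 2-fold lower, Stim2 being added. No member's direction turned under these 2 scalings. Among the named list genes, Mcoln3 then also passed 2-fold, at -1.14 with median-of-ratios.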

How the data were processed

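Single cells were picked by hand from dissociated cochleae, and full-length cDNA libraries (Smart-Seq HT) were made from each, per the labels' protocols. The authors deposited 1 table of counts per gene and cell, not normalized and without molecular identifiers, so PCR copies are counted. The submitters' processing notes name HISAT2 2.2.1, StringTie 2.2.1, featureCounts 2.0.1 and the build mm10, with no role or order. The annotation, filters and strand setting of the counts are not given in the sources used here.

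From these counts, reads were summed over the 32 OHCs and over the 67 cIHCs and divided by the summed totals (242054710 and 544012348) to give pooled CPM. Of 55291 genes, 28509 had no read. Every column belonged to 1 cell, and 0 pairs of cells in a group were identical. Genes that reached 1 CPM in either sum were compared by log2 ratio, and a 2-fold difference was counted. The planned design gives no test, because no animal is named. A sum of 0 was set to 3 counts over the group and its ratio given as a bound; sums of 1 to 3 counts enter list medians and counts at 3, while their ratios are printed from the true counts. The 95% intervals are exact Poisson for levels, exact conditional binomial for ratios, Clopper-Pearson for shares of cells, and all cover counting error only. Those for levels and ratios take reads as independent, which PCR copies are not, and hold no spread between cells.

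Levels per kb use the union of exons in GENCODE M21, where 96.4% of the gene symbols were found. Thinning drew 5770000 reads per cell without replacement, which left 29 OHCs and 66 cIHCs. Subsets by sex took cells with at least 10 CPM of Xist or of summed Y-linked genes. The members and the role lists were chosen with earlier results of these data known; 3 list names were not matched in the table, and 1 was dropped after its older symbol matched an unrelated gene. The genes named are all members and, of each list, up to 2 with the highest and 2 with the lowest ratio among those at least 2-fold apart with at least 10 CPM in the higher group, and the most abundant in each group; Sri, Casq1, Hrc and Atp2a2 were named after their values were seen. Some genes that this rule selects are part of their lists but are not reported here. On simulated counts drawn for the comparison of cIHCs with OHCs over 14713 genes, 100% of 200 changed genes were recovered to within 0.5 on the log2 scale. Those counts were drawn with counting error only, from a profile shared by all cells. They held no spread between cells, so the recovery checks the calculation and not ratios that single cells set. Alternatives were other ways of combining cells, other scalings, subsets of cells and other thresholds. TMM factors (edgeR 4.0.16, R 4.3.3) were 0.936 and 1.07. All else was computed in Python 3.11.15 (scipy 1.17.1, pandas 2.3.3, numpy 2.4.6; figures with matplotlib 3.10.9).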

Additional observations from a re-analysis of the deposited data

How the results depend on the processing

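Ryr1, Ryr2 and Itpr1 kept their direction and a 2-fold difference under all 10 alternatives that gave them a value. Itpr2 turned to -0.39 and Stim2 to 7.53 (with 1 read set to 3) in cells with Xist reads; the cause was not tested. The median log2 ratio of the 9 members, 0.42 with all cells, was 0.62 with the mean of CPM per cell, 1.36 without the highest cell, 0.22 with TMM, 0.21 with median-of-ratios, 0.34 without the 10 most abundant genes, 2.64 in Xist cells, 0.12 in Y-linked cells, 0.34 without cells with other-type reads and 0.50 in thinned cells. Members at least 2-fold higher numbered 5 without the highest cell and 5 in Xist cells. Members lower numbered 1 at 4-fold and 1 without cells with other-type reads. Of the list genes, 23 were lower at 1.5-fold, 8 at a minimum of 10 CPM, and 17 were higher at 4-fold. The median of CPM per cell gave no value, since no member had a median above 0 in both groups. The planned exclusion of cells with reads of another cell type left 2 OHCs and 0 cIHCs, since the neuron list summed to at least 322.7 CPM in every cIHC; the exclusion without that list was chosen after seeing the data. No paired analysis was possible because replicate numbers here merely number the cells of a group. Genes at 1 to 10 CPM had reads in a median of 9.38% of OHCs and 14.9% of cIHCs, so levels in that range rest on few cells.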
